A study of Mus musculus with 8 samples.

Results

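Ppargc1a, Ppargc1b, Pprc1, Esrra, Esrrb, Esrrg, Nrf1 and Tfam are a family of transcriptional coactivators, 3 nuclear receptors they work with and a pair of factors that act further along the same pathway. They were chosen by gene name, and each of the 8 names matched 1 of the 45706 genes measured. Ribosome-associated mRNA was isolated from PV+ interneurons of the primary somatosensory cortex (S1) of PvalbFlp/+;Neurod6Cre/+ mice and sequenced in 4 samples after CNO and 4 after vehicle. Both groups carried the same AAV, injected at postnatal day 1. It encodes the ribosomal protein RPL10a with an HA tag, used to pull ribosomes down, and hM3Dq, a designer receptor through which CNO excites neurons. Its synapsin promoter is neuronal, Flp under Pvalb switches it on, and Cre under Neurod6 switches it off in pyramidal cells. Mice aged 42 to 70 days received 5 injections over about 48 h, of CNO at 1 mg/kg or of vehicle. Each sample pooled 4 brains, so that 1 value is a pool and not an animal. In pooled tissue of this kind, fewer cells of a type and less RNA per cell cannot be told apart.

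The PGC-1 coactivators do not bind DNA themselves but dock onto transcription factors and recruit the machinery that opens chromatin and starts transcription. PGC-1α, encoded by Ppargc1a, is best known for driving mitochondrial biogenesis together with the estrogen-related receptors, orphan receptors that need no hormone. It also works through the nuclear respiratory factor Nrf1, which in turn acts on Tfam. Tfam packages mitochondrial DNA and takes part in its transcription. In the cortex PGC-1α is concentrated in interneurons, and PV+ cells, which fire fast and hold many mitochondria, depend on it for part of their gene expression.

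Each sample held between 44064161 and 49413273 estimated counts. A floor of 3 counts equals 0.0607 to 0.0681 CPM (counts scaled to a common library size), a limit that covers counting error only. The edgeR quasi-likelihood test called 0 of 17495 genes at an adjusted p under 0.05 (0%), with 716 genes (4.09%) at an unadjusted p under 0.05. The smallest adjusted p in that test was 0.052. The paper used edgeR with a robust dispersion estimate and reported differentially expressed genes, among them Fos, Vgf and Scg2. The likelihood ratio test with robust dispersion called 15 genes (0.0857%), and in 423 genes (2.42%) the 4 CNO values of log2 normalized CPM did not overlap the 4 vehicle values. The share of all genes without overlap in TPM was not computed. Pvalb was present in every sample, but vehicle replicate 1 stood apart, with 300.1 TPM (transcript abundance corrected for length and library size) of Pvalb against a vehicle mean of 820.2 ± 349.5 (SD, n = 4). A marker index was calculated as the mean log2 CPM of 9 markers of PV+ and other GABAergic cells minus the mean of 11 markers of pyramidal cells. It was 1.14, 0.40, 0.91 and 1.504 in CNO replicates 1 to 4 and -0.64, 0.54, 0.93 and 0.81 in vehicle replicates 1 to 4. Results that rest on vehicle replicate 1 are therefore given with and without it.

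The genes lie on separate chromosomes except for Pprc1 and Esrra, which share chromosome 19. On GRCm38 (GENCODE), Ppargc1a spans chr5:51454250-51567726 on the minus strand, Esrrg chr1:187608791-188214885 on the plus strand and Tfam chr10:71225464-71238280 on the minus strand. Exons of Pprc1 overlap Ldb1 on the opposite strand, and exons of Esrra overlap Trmt112 on the opposite strand and Mir6990 on the same strand. The shares of sequence stretches also found in other genes were 2.28% for Pprc1 and 3.47% for Esrra. Since the counting is not stated to use strand, reads of these overlaps cannot be assigned to 1 gene with certainty. Among the other 6 genes that share ran from 0.0331% to 0.632%.

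Promoter sequence in RefSeq (GRCm38.p6) was held for 7 of the 8 genes and was searched on both strands for 6 motifs. The promoter of Ppargc1a, the coactivator gene that cAMP and calcium signals switch on in other tissues, is shown because it holds a match to 1 of these motifs. The sequence is the 250 bases before the RefSeq start, 5′ to 3′ in the direction of the gene. Capitals mark the core of the cAMP response element on the reverse strand (TGACG, read here as CGTCA).
Ppargc1a, chr5:51567726-51567975, minus strand: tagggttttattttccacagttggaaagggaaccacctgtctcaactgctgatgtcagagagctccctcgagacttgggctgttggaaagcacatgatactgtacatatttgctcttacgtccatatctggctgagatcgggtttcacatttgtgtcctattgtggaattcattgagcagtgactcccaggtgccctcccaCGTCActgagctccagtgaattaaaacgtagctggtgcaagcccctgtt
The match began at position -49 from the start. TGACG was present in 20.8% of all 32851 promoters of the table, which extend 50 bases past the start. A promoter of Esrrb also held TGACG, at -158 and -117. Tfam held the core bound by the ETS factor GABP (CCGGAAG, in 8.86% of all promoters) at -47 from its RefSeq start, which lies downstream of the GENCODE start, so that this match is inside the gene as GENCODE places it. The full cAMP response element TGACGTCA, the estrogen-related receptor element TCAAGGTCA, the NRF1 core CGCATGCG and the E-box CACGTG had no match in the windows of these genes, and 1.79%, 0.423%, 1.87% and 7.15% of all promoters held them in that order. The TGACG core is the first part of the full element, so that these counts are not separate.

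All 8 genes passed the filter on low counts. Pprc1, Ppargc1a and Esrra were the most abundant, with means of 97.5, 97.0 and 90.9 TPM over the 8 samples, between the 88.0th and the 88.8th percentile of the genes tested. The order of these 3 genes changed between samples, Pprc1 being above Ppargc1a in 3 of 8 and Ppargc1a above Esrra in 5 of 8. Tfam followed with 47.9 TPM, below Esrra in 8 of 8 samples and without overlap. Esrrg, at 43.0 TPM, was below Tfam in 6 of 8 samples, and Ppargc1b, at 29.6 TPM, below Esrrg in 7 of 8. Nrf1 (17.5 TPM) and Esrrb (0.972 TPM) each lay below the gene before it in 8 of 8 samples without overlap. Esrrb, the receptor best known from embryonic stem cells, had 29 to 125 reads per sample, while Esrrg, the receptor typical of tissues with high oxidative demand, had 1788 to 7099.

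**Figure D1:**
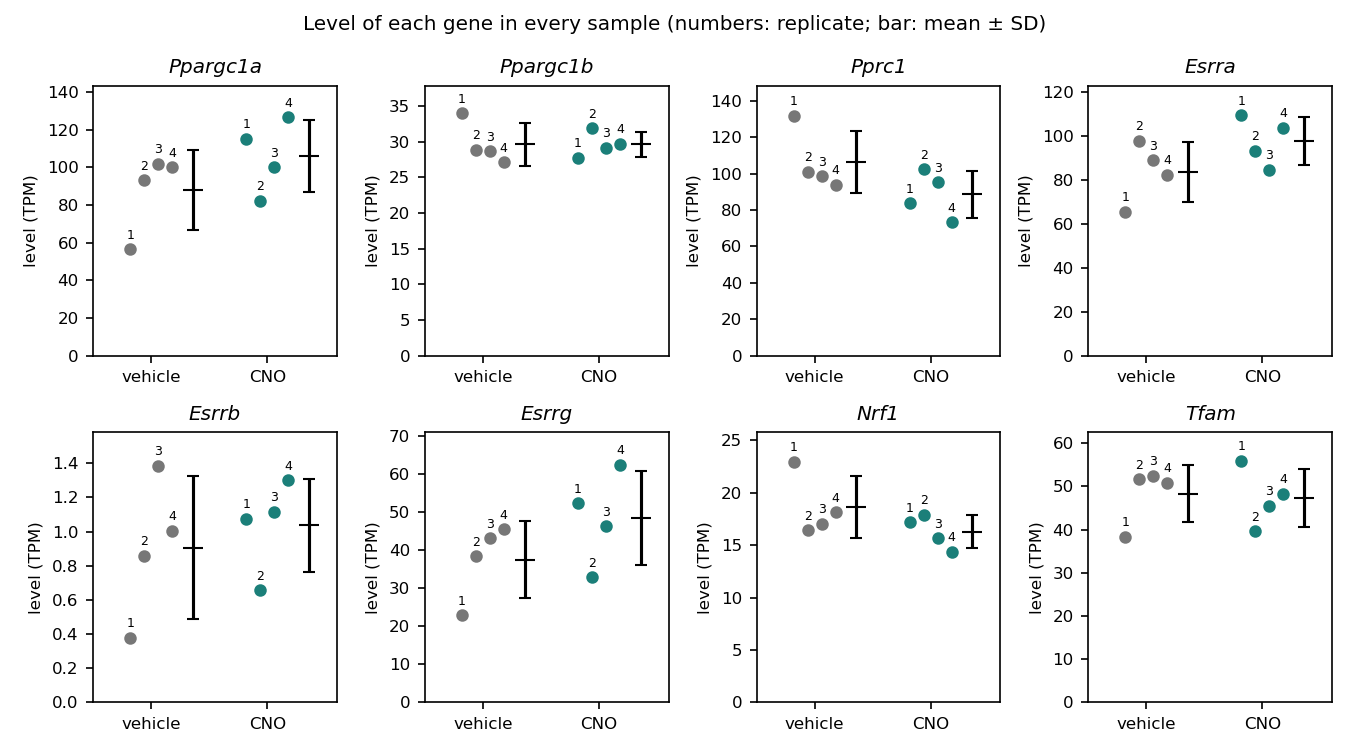
Level in TPM (y axis, from 0) of each of the 8 genes in the vehicle (grey) and CNO (green) samples, with replicate numbers beside the points and the mean ± SD of each group (n = 4) as a bar. The groups overlap for all 8 genes, and vehicle replicate 1 is the lowest or the highest of the 8 samples in every panel.

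The comparison of CNO with vehicle asks whether 48 h of raised activity of PV+ interneurons went along with a different level of these regulators on ribosomes. In the quasi-likelihood test none of the 8 genes was called, and none reached an unadjusted p under 0.05. That test called 0% of all genes, and the likelihood ratio test also called 0 of the 8. In the likelihood ratio test Esrrg had an unadjusted p of 0.0461 and an adjusted p of 0.894. In 0 of the 8 were the groups without overlap, in TPM or in normalized CPM, against 2.42% of all genes tested in normalized CPM. The largest fold change was that of Esrrg, with an interval that included 0.

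Ppargc1a, the coactivator that gives the pathway its name, had 115.1, 82.3, 100.04 and 126.6 TPM in CNO replicates 1 to 4 and 56.6, 93.0, 102.0 and 100.2 TPM in vehicle replicates 1 to 4. In TPM CNO replicates 1 and 4 exceeded every vehicle sample, whereas CNO replicates 2 and 3 lay within the vehicle range. In log2 normalized CPM CNO replicate 3 was also above every vehicle sample, at 7.263 against a vehicle maximum of 7.247. The means were 106.0 ± 19.2 and 88.0 ± 21.3 TPM (SD, n = 4). The log2 fold change was 0.35 (SE 0.22, 95% interval -0.14 to 0.84), with an adjusted p of 0.817 in the quasi-likelihood test. It was 0.16 when vehicle replicate 1 was left out.

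Ppargc1b encodes PGC-1β, the closest relative of PGC-1α. Its levels were 27.7, 31.8, 29.2 and 29.7 TPM after CNO and 34.0, 28.9, 28.6 and 27.1 TPM after vehicle. This was the steadiest of the genes, with a coefficient of variation of 7.63% over the 8 samples, against 21.7% for Ppargc1a. The log2 fold change was 0.07 (SE 0.088, interval -0.13 to 0.26, adjusted p = 0.846), and 0.11 without vehicle replicate 1.

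Pprc1 encodes the PGC-1-related coactivator, known as an early gene of the response of cultured cells to serum. It had 83.6, 102.4, 95.3 and 73.3 TPM after CNO and 131.6, 101.03, 98.6 and 93.8 TPM after vehicle. Here CNO replicates 1 and 4 lay below every vehicle sample, the same samples in which Ppargc1a was above in TPM. The log2 fold change was -0.20 (SE 0.13, interval -0.49 to 0.09, adjusted p = 0.817), and -0.11 without vehicle replicate 1.

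Within the PGC-1 family, Ppargc1a made up 50.8%, 38.0%, 44.6% and 55.1% of the summed TPM in CNO replicates 1 to 4 and 25.5%, 41.7%, 44.5% and 45.3% in vehicle replicates 1 to 4. The mean share was 47.1 ± 7.46% after CNO and 39.3 ± 9.31% after vehicle. The difference of 7.88 percentage points was within the spread of the samples in a two-sided exact permutation test over 70 assignments (p = 0.257), and it was 3.29 points without vehicle replicate 1. Pprc1 took 39.7% and 47.5%, and Ppargc1b 13.2% in either group.

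Esrra encodes ERRα, the receptor through which PGC-1α acts on many genes of oxidative phosphorylation. It had 109.6, 93.4, 84.8 and 104.02 TPM after CNO and 65.7, 98.1, 89.2 and 82.5 TPM after vehicle. CNO replicates 1 and 4 were above every vehicle sample and the other two were inside the vehicle range. The log2 fold change was 0.38 (SE 0.19, interval -0.04 to 0.81, unadjusted p = 0.0744, adjusted p = 0.817 in the quasi-likelihood test). It was 0.21 when vehicle replicate 1 was left out.

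Esrrg encodes ERRγ, and its levels were 52.4, 32.9, 46.3 and 62.5 TPM after CNO and 23.0, 38.4, 43.2 and 45.5 TPM after vehicle. CNO replicates 1, 3 and 4 exceeded every vehicle sample, and CNO replicate 2 was lower than vehicle replicates 2, 3 and 4. Of the 8 genes it had the largest log2 fold change, 0.51 (SE 0.29, interval -0.12 to 1.14, adjusted p = 0.817). Leaving out vehicle replicate 1 gave 0.28. Esrrb had 1.07, 0.655, 1.12 and 1.30 TPM after CNO and 0.378, 0.858, 1.39 and 1.01 TPM after vehicle. Its log2 fold change of 0.23 (SE 0.38, interval -0.60 to 1.06, adjusted p = 0.873) turned to -0.04 without vehicle replicate 1.

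Among the 3 receptors, Esrra held 66.7 ± 5.06% of the summed TPM after CNO and 68.9 ± 4.44% after vehicle, and Esrrg 32.6 ± 4.93% and 30.3 ± 4.24%. The difference in the share of Esrrg was 2.25 percentage points (two-sided exact permutation, p = 0.6). It was 0.745 points without vehicle replicate 1, 0.688 without CNO replicate 4, 1.44 without CNO replicate 3, 1.46 without vehicle replicate 2, 3.89 without vehicle replicate 4 and 4.48 without CNO replicate 2. Esrrb made up 0.699% and 0.716%.

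Nrf1, the nuclear respiratory factor that binds promoters of many mitochondrial genes, had 17.2, 17.9, 15.6 and 14.4 TPM after CNO and 23.0, 16.4, 17.0 and 18.1 TPM after vehicle. Vehicle replicate 1 was the highest and CNO replicate 4 the lowest of the 8 samples. The log2 fold change was -0.09 (SE 0.11, interval -0.34 to 0.16, adjusted p = 0.838), and 0.0039 without that sample.

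Tfam had 55.9, 39.6, 45.5 and 48.4 TPM after CNO and 38.4, 51.7, 52.5 and 50.8 TPM after vehicle. In TPM only CNO replicate 1 exceeded the vehicle range. In log2 normalized CPM only CNO replicate 4 did, at 5.382 against a vehicle maximum of 5.298. The log2 fold change was 0.04 (SE 0.15, interval -0.28 to 0.36, adjusted p = 0.949), it was -0.08 without vehicle replicate 1, and its sign also turned on the TPM scale.

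**Figure D2:**
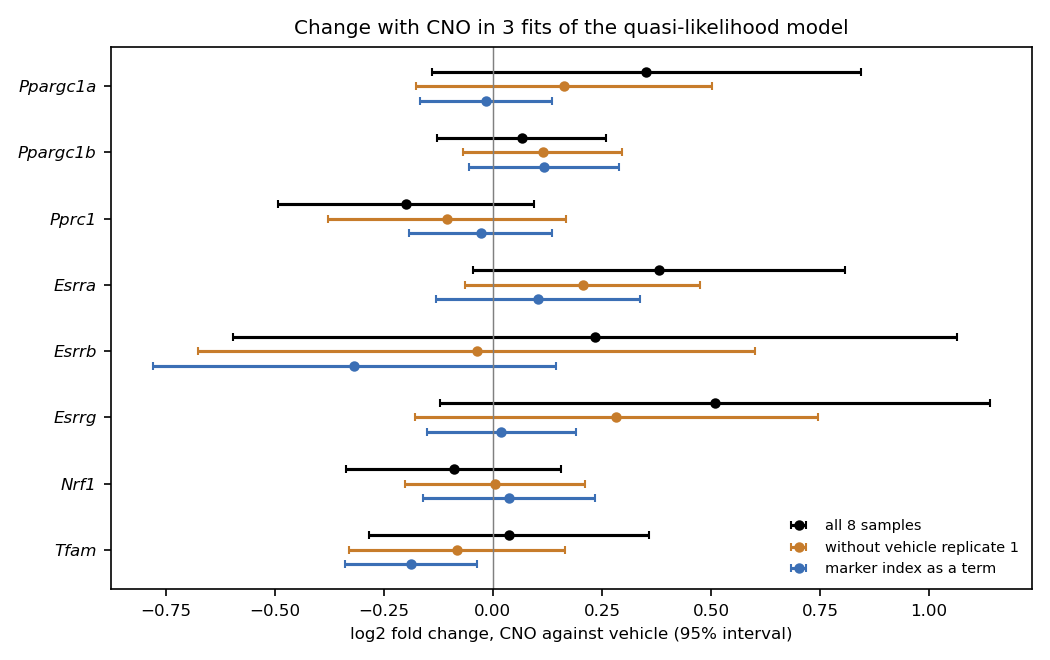
Log2 fold change of CNO against vehicle (x axis) with 95% intervals for the 8 genes, fitted over all samples (black), without vehicle replicate 1 (orange) and with the marker index as a term (blue). All intervals cross 0 except that of Tfam with the marker index, -0.34 to -0.04, whose adjusted p is 1.00.

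Vehicle replicate 1 lay outside the range of the other 7 samples for all 8 genes. As a percent of the mean of vehicle replicates 2 to 4, Ppargc1a was at 57.5%, Esrrg at 54.3%, Esrra at 73.0%, Tfam at 74.3% and Esrrb at 34.9% in TPM. By contrast, Pprc1 was at 134.6%, Nrf1 at 133.4% and Ppargc1b at 120.5%. This is the sample with the lowest marker index. In CNO replicate 4, which had the highest index, Ppargc1a and Esrrg were at their highest and Pprc1 and Nrf1 at their lowest of the 8 samples.

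Across the 8 samples, Ppargc1a and Esrrg followed each other most closely. Their log2 CPM had a Pearson r of 0.991 (exact permutation p = 7.4e-05, adjusted p = 0.00104) and a Spearman rho of 0.976 (adjusted p = 0.00715). The r was 0.967 without the 2 samples farthest from the median of Ppargc1a and 0.980 without vehicle replicate 1. Ppargc1a and Esrra had r = 0.936 (exact permutation, adjusted p = 0.0072) and rho = 0.786 (adjusted p = 0.0717), with r at 0.637 without the 2 farthest samples. Ppargc1a and Tfam had r = 0.919 (exact permutation, adjusted p = 0.00536) and rho = 0.810 (adjusted p = 0.0604), with r at 0.756 without the 2 farthest. In all, 36 relations were computed, 28 between genes and 8 with the marker index. By Pearson's r 24 had an adjusted p under 0.05 and by Spearman's rho 9. With vehicle replicate 1 left out, 6 passed by Pearson's r.

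The pairs were grouped by sign after their values were seen. All 10 pairs among Ppargc1a, Esrra, Esrrb, Esrrg and Tfam had positive r, from 0.817 to 0.991, each with an adjusted exact permutation p under 0.05. They ran, without vehicle replicate 1, from 0.413 to 0.980. The 15 pairs of these genes with Ppargc1b, Pprc1 or Nrf1 ran from -0.954 to -0.23, and 7 of them passed. Of these 15, 4 were positive without vehicle replicate 1, up to 0.421, and 7 without the 2 farthest samples, up to 0.822. Ppargc1b, Pprc1 and Nrf1 formed no set among themselves, with r from 0.206 to 0.676, of which 0 of 3 passed, and from -0.734 to -0.255 without the 2 farthest samples. The strongest negative relation was that of Ppargc1a with Pprc1, at r = -0.954 (exact permutation, adjusted p = 0.00104) and rho = -0.905 (adjusted p = 0.0205). It was -0.895 without the 2 farthest samples and -0.938 without vehicle replicate 1, so that the 2 coactivators ran opposite to each other also in the remaining samples. The relation of Ppargc1a with Nrf1 rested on those samples, since its r of -0.788 became 0.410 without the 2 farthest. Ppargc1b had no relation that passed, and its r with Ppargc1a was -0.296 in CPM but -0.791 in TPM.

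**Figure D3:**
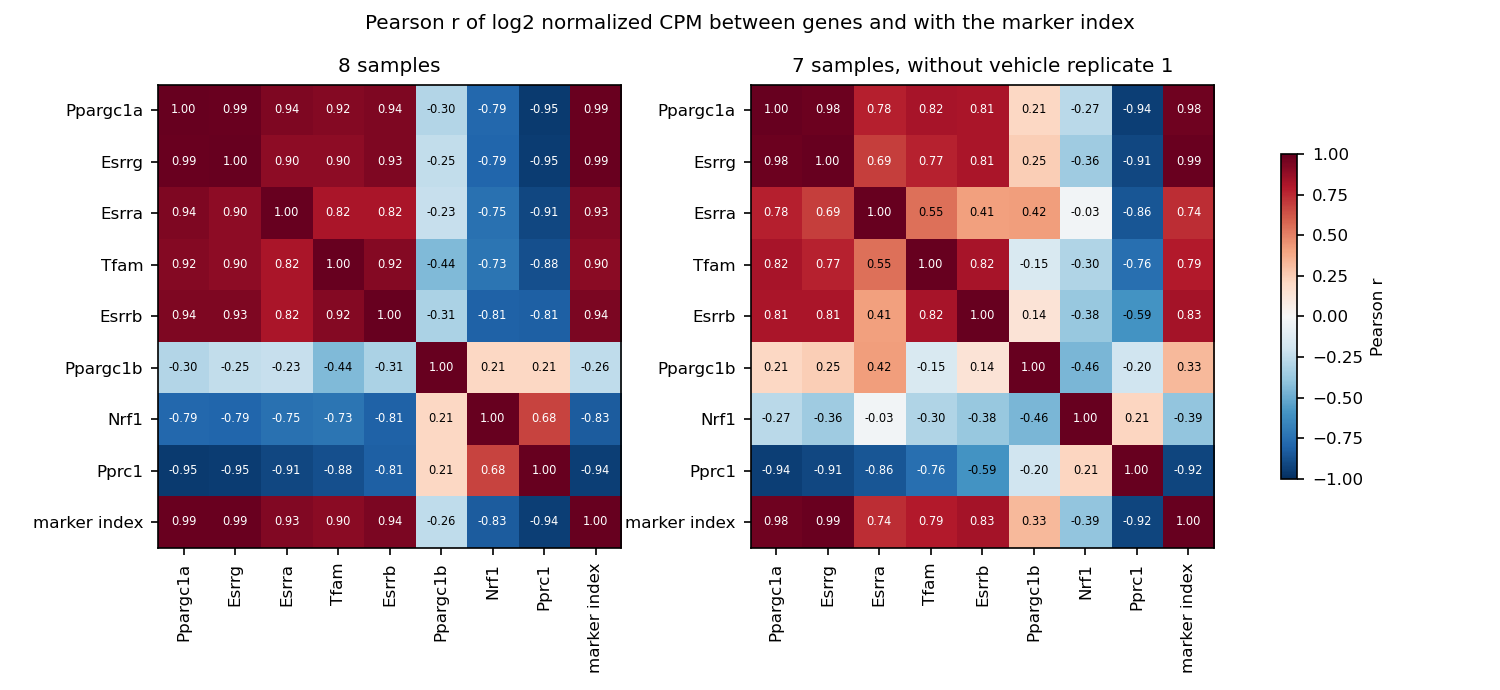
Pearson r (colour and number) between the log2 normalized CPM of each pair of genes and with the marker index, over all 8 samples (left) and over 7 samples without vehicle replicate 1 (right). Ppargc1a, Esrrg, Esrra, Tfam and Esrrb form a block of positive r on either side, and Pprc1 is negative with all 5 of them.

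The marker index moved with the same genes. Its r was 0.992 with Ppargc1a (exact permutation, adjusted p = 0.00104, rho 0.976), 0.991 with Esrrg (adjusted p = 0.00104, rho 0.929) and 0.929 with Esrra (adjusted p = 0.00871, rho 0.810). With Pprc1 it was -0.941 (exact permutation, adjusted p = 0.00104, rho -0.929) and with Ppargc1b -0.256 (adjusted p = 0.598). Without CNO replicate 4 and vehicle replicate 1, the 2 farthest samples, the r was 0.972 for Ppargc1a, 0.981 for Esrrg, 0.528 for Esrra and -0.827 for Pprc1, and for Nrf1 it changed from -0.835 to 0.351. The 3 samples with the lowest index, CNO replicate 2 and vehicle replicates 1 and 2, were those in which Pprc1 exceeded Ppargc1a in TPM. When the straight-line relation with the index was removed from each gene, Ppargc1a and Esrrg had an r of 0.473. The 10 pairs among Ppargc1a, Esrra, Esrrb, Esrrg and Tfam then ran from -0.506 (Esrra with Esrrg) to 0.473. Pprc1 ran from -0.495 with Ppargc1a to 0.648 with Esrrb. What lies behind this dependence on the index was not tested.

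**Figure D4:**
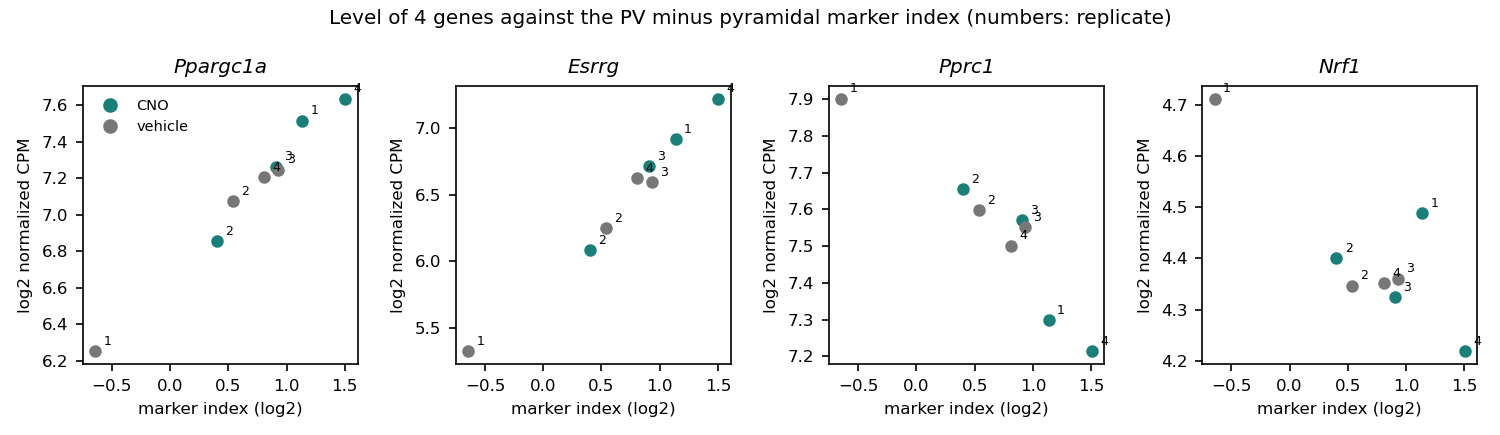
Log2 normalized CPM (y axes, not starting at 0) of Ppargc1a, Esrrg, Pprc1 and Nrf1 against the marker index (x axis, log2) in the 4 CNO (green) and 4 vehicle (grey) samples, numbered by replicate. Ppargc1a and Esrrg follow the index over the whole range, Pprc1 runs opposite to it, and the trend of Nrf1 is set by vehicle replicate 1 and CNO replicate 4.

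With the index as a term in the quasi-likelihood fit, the log2 fold change was -0.02 for Ppargc1a (95% interval -0.17 to 0.14), 0.02 for Esrrg, 0.10 for Esrra and -0.03 for Pprc1. That of Tfam was -0.19 (unadjusted p = 0.0198, adjusted p = 1.00). Ppargc1a and Esrrg had an r of 0.992 and 0.991 with the index over these samples, so that little variation was left for the CNO term. Whether CNO itself moved the index was not tested. The index holds only genes outside the 8. The summed TPM of its 9 PV+ and GABAergic markers ranged from 1619 to 2631 after CNO and from 859.1 to 1975 after vehicle, and 9 of 9 had a positive log2 fold change, of which 0 were called. The 11 pyramidal markers ranged from 1430 to 1955 and from 1613 to 2285, with 10 of 11 negative and 0 called. Of the other lists, 7 of 7 endothelial markers were positive (median 0.37), 7 of 7 oligodendrocyte and 7 of 7 microglia markers negative (-0.23 and -0.24), 6 of 7 astrocyte markers negative (-0.16) and 5 of 8 markers of other interneurons negative (-0.10), with 0 called. Their sums overlapped between groups, at 195.8 to 310.1 and 245.3 to 357.1 TPM for 7 astrocyte markers, 594.3 to 1066 and 821.3 to 1054 for 7 oligodendrocyte markers, 43.0 to 68.4 and 54.8 to 82.3 for 7 microglia markers, and 43.7 to 131.6 and 67.9 to 99.98 for 7 endothelial markers. For 8 markers of other interneurons the ranges were 605.3 to 700.9 and 694.7 to 812.3. No marker was at 0 in any sample, and the part of these other cell types in the levels of the 8 genes was not tested.

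Many other genes tracked Ppargc1a as closely. Of all genes tested, 14.4% had an r above 0.9 with it, and among the 15172 genes with a mean above 1 TPM, Esrrg ranked 79th and Esrra 1763rd. The 3 genes most like Ppargc1a over the 8 samples were Parva (r = 0.998), Ppp2r5c (0.997) and Prkaa1 (0.997, rho 1.0). Prkaa1 encodes a catalytic subunit of AMPK, the energy sensor that phosphorylates PGC-1α, and Ppp2r5c a regulatory subunit of protein phosphatase 2A. For Esrrg they were Ubxn2a (0.998), Krt222 (0.997) and Inpp5f (0.996). Esrra was followed most closely by Nrip2 (0.998), Rell2 (0.994) and Lrrc27 (0.992), and Tfam by Nsg1 (0.990), Fra10ac1 (0.986) and Spcs2 (0.986). Without vehicle replicate 1 these 12 values lay between 0.971 and 0.996.

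Genes around the 8 were examined in lists of their regulators, partners and targets, and none of their members was called by the quasi-likelihood test or by the likelihood ratio test. Of 24 regulators of PGC-1, 10 had a positive and 14 a negative log2 fold change, with a median of -0.02 against 0.0014 over all genes tested. The deacetylase Sirt1, which activates PGC-1α, was at 12.8 ± 2.44 TPM after CNO and 13.9 ± 2.16 TPM after vehicle (log2 fold change -0.03). The cAMP-responsive factor Creb1 (-0.03) and the AMPK subunit Prkaa2 (-0.03) were as close to 0. Mef2c, which acts on the Ppargc1a promoter in muscle, was at -0.08. The calcium-dependent kinase Camk4 was at -0.17 and the corepressor Nrip1 at -0.15. The list ran from the corepressor Ncor1 at -0.28 (unadjusted p = 0.0465, adjusted p = 0.817) and Camkk2 at -0.27 to Prkag1 at 0.16 and Prkaa1 at 0.30.

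Of 25 partner transcription factors 23 were tested, Esr2 and Hnf4a being under the filter, with 14 positive and 9 negative and a median of 0.02. The thyroid hormone receptor Thra was at 0.12 and the GABP subunit Gabpa at 0.03. For the fatty acid receptor Ppara the scales differed. Its log2 fold change from counts was 0.01 (SE 0.24), while its level was 1.16 ± 0.0918 TPM after CNO and 1.55 ± 0.177 TPM after vehicle. Its groups did not overlap in TPM but did in normalized CPM, and no share of all genes was computed in TPM. The retinoid receptor Rxrg had the lowest value, -0.40 (SE 0.26), and Nr1h3 and Nr1h2, both liver X receptors, the highest, 0.27 and 0.18. In Foxo1, at -0.26 (unadjusted p = 0.0504, adjusted p = 0.817), the 4 CNO samples were below the 4 vehicle samples in normalized CPM but overlapped them in TPM, and 2.42% of all genes tested had groups separate in normalized CPM.

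The 18 genes that copy, transcribe and translate mitochondrial DNA, the process Tfam serves, split into 10 positive and 8 negative with a median of 0.05. The transcription factors Tfb1m and Tfb2m were at 0.19 and 0.16, the polymerase Polrmt at -0.14, the helicase Twnk at -0.15, the single-strand binding protein Ssbp1 at -0.03 and the RNA-binding Lrpprc at -0.09. The extremes were Tefm, an elongation factor, at -0.20, and Mrpl12 and Slirp at 0.25 and 0.23. Polrmt had 25.8 ± 5.15 TPM after CNO and 30.04 ± 2.14 TPM after vehicle.

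Nuclear genes of mitochondrial metabolism, which are targets of PGC-1α and the estrogen-related receptors in other tissues, were higher after CNO in most cases, though none passed the test. Of 58 genes, 50 (86.2%) had a positive log2 fold change, against 50.4% of all genes tested, with a median of 0.21, and 0 were called or had an unadjusted p under 0.05. Cycs, encoding cytochrome c, had 508.8 ± 68.1 TPM after CNO and 407.0 ± 125.2 TPM after vehicle (0.40, SE 0.26). Cox6a2, a cytochrome oxidase subunit of muscle and fast neurons, had 145.9 ± 25.7 and 108.1 ± 48.6 TPM (0.49, SE 0.35). In vehicle replicate 1 Cycs had 222.4 and Cox6a2 36.4 TPM, against 438.6 to 494.7 and 125.5 to 144.6 TPM in vehicle replicates 2 to 4. Idh3a (0.30) and Cs (0.18) of the citric acid cycle, the ATP synthase subunit Atp5b (0.24) and the superoxide dismutase Sod2 (0.28) were positive. Acadm of fatty acid oxidation (-0.02) and Mfn2 of mitochondrial fusion (-0.02) were not. The lowest values were those of Mfn1, a relative of Mfn2 (-0.08), and Cpt1c (-0.05). The highest value was that of Cox7a1 (0.95, SE 0.46), and Perm1, a muscle target, was at 0.416 and 0.373 TPM.

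The split of these 58 genes changed with the samples and with the index. With vehicle replicate 1 left out, 44 were positive with a median of 0.08. With the marker index as a term 12 were positive and 46 negative, with a median of -0.04 against -0.02 for all genes. Of the 58, 51 correlated positively with Ppargc1a over the 8 samples with a median r of 0.952, against 48.7% of all genes and a median of -0.036. Leaving out vehicle replicate 1, the median was 0.859. With Pprc1, 7 of the 58 correlated positively and the median r was -0.878.

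The 6 genes known to depend on PGC-1α in PV+ cells were all positive, with a median of 0.36, and 0 were called. Stac2 was at 53.6 ± 8.84 TPM after CNO and 37.7 ± 10.1 TPM after vehicle (0.58, SE 0.23, unadjusted p = 0.0261, adjusted p = 0.817). The calcium sensor of fast release Syt2 was at 0.57, the release regulator Cplx1 at 0.38, Inpp5j at 0.35, Pvalb at 0.34 and the neurofilament gene Nefh at 0.19. In vehicle replicate 1 Stac2 had 22.6 and Syt2 36.5 TPM, against 41.5 to 43.9 and 81.9 to 106.7 TPM in vehicle replicates 2 to 4. In normalized CPM the 4 CNO samples were above the 4 vehicle samples in Inpp5j and Nefh, 2 of the 6 genes against 2.42% of all genes with separate groups, and in TPM those of Nefh overlapped. With the marker index as a term 4 of the 6 were positive, with a median of 0.06, and without vehicle replicate 1 all 6 with a median of 0.17.

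The 13 mRNAs encoded by mitochondrial DNA, in whose transcription Tfam takes part, are translated by mitochondrial rather than tagged cytosolic ribosomes. Of these 13, 11 had a negative log2 fold change, with a median of -0.09. mt-Nd1 was at 164.0 ± 14.5 TPM after CNO and 203.7 ± 10.3 TPM after vehicle (-0.24, unadjusted p = 0.0332, adjusted p = 0.817), mt-Co1 at -0.11, mt-Cytb at -0.14 and mt-Atp8, the lowest, at -0.25. The positive ones were mt-Nd4l (0.55, SE 0.66), listed at 0 in vehicle replicate 4, and mt-Nd3. mt-Nd3 had 14.9, 5.07, 7.96 and 10.6 TPM after CNO and 2.67, 3.84, 3.40 and 4.77 TPM after vehicle, without overlap. The groups were also separate in mt-Nd5, in the other direction, with 92.9, 76.6, 88.0 and 72.0 TPM after CNO and 105.6, 99.3, 98.7 and 99.7 TPM after vehicle (log2 fold change -0.22, unadjusted p = 0.0569, adjusted p = 0.817). Counted in normalized CPM, these are 2 of 13 genes, against 2.42% of all genes tested. In TPM mt-Nd1 was also without overlap, at 151.2 to 182.3 after CNO and 192.7 to 217.55 after vehicle, a scale on which no share of all genes was computed. For mt-Nd3 the log2 fold change was 1.44 (SE 0.38, unadjusted p = 0.00288, adjusted p = 0.817 in the quasi-likelihood test and 0.245 in the likelihood ratio test). The negative count stayed at 11 of 13 without vehicle replicate 1 and with the marker index as a term, where the median was -0.17 and -0.23.

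**Figure D5:**
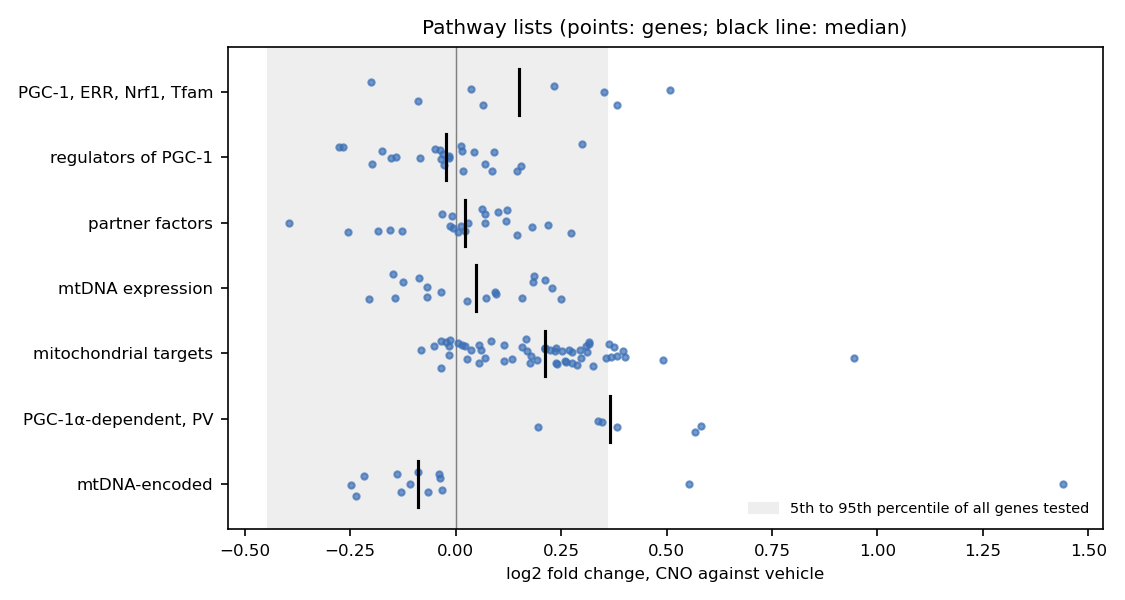
Log2 fold change of CNO against vehicle (x axis) of every tested gene (points) of the 8 genes and the 6 lists around them, with the median of each as a black line and the 5th to 95th percentile of all genes tested (-0.45 to 0.36) in grey. The mitochondrial targets and the PGC-1α-dependent genes lie mostly right of 0, the mitochondrially encoded mRNAs mostly left, and no point is a called gene.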

How the data were processed

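Read trimming (Trim Galore), alignment to GRCm38 (STAR) and quantification (Salmon) were done by the authors. They deposited estimated counts per gene, without normalization, and TPM, which divides counts by transcript length and scales each sample to the same sum. Levels of different genes were compared in TPM. Rounded estimated counts of all 8 samples entered edgeR 4.0.16 (R 4.3.3). Genes with under 10 reads in 4 or more samples were excluded, TMM factors were applied, and the quasi-likelihood test compared the groups, with p-values adjusted by Benjamini-Hochberg over all genes tested. Log2 CPM of single samples used TMM factors and a prior count of 2. Shares were compared by two-sided exact permutation and correlations over all orders of the 8 samples. p-values measure the spread between pools. The scripts were tested on simulated data. Gene loci came from GENCODE mouse release 21, and shared sequence is the percent of 31-base stretches of a gene's transcripts found in other genes.

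The genes and lists were chosen with earlier results of these data known. Named were the 8 genes, a stated choice from each list, the 2 highest and 2 lowest of each list by log2 fold change with a mean above 1 TPM, and the 3 genes most correlated with Ppargc1a, Esrrg, Esrra and Tfam. Esr2, Hnf4a and mt-Nd5 fall outside this rule and were named after their values were seen. Twnk stands as Peo1 in the files. Alternatives used DESeq2 1.42.0, limma 3.58.1 on log2 TPM, sva 3.50.0, other scalings and filters, left-out samples and added terms. Figures were made in matplotlib 3.10.9 under Python 3.11.15.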

Additional observations from a re-analysis of the deposited data

Results flagged for a closer look

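In Nrf1, vehicle replicate 1 stood apart from its group. Its log2 normalized CPM was 4.71, against 4.35, 4.36 and 4.35 in vehicle replicates 2, 3 and 4, and its gap to the nearest of them was 0.962 of the range of the group, above Dixon's 95% critical value for 4 samples. Of 22 groups examined this was 1, and chance gives about 1.1. The same sample had the lowest marker index, and the part of the index in this value was not tested.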

How the results depend on the processing

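None of the 8 genes was called under any of the alternatives, and the lowest adjusted p was 0.473. The lowest unadjusted p, each from a quasi-likelihood test, was 0.0294 for Esrrg and 0.0488 for Ppargc1a, both without CNO replicate 2. It was 0.0325 for Esrra without the filter and 0.0198 for Tfam with the marker index. For the other genes it stayed above 0.05. Of the values recomputed, 316 were unchanged, 15 turned in sign and 1, the number of correlations without vehicle replicate 1, moved. For fold changes and shares, unchanged means the same direction and the same side of the threshold. For numbers of genes called it means 0 in both fits, and for numbers of correlations a count close to that of the main fit. Ppargc1a turned to -0.0153 with the marker index as a term. Esrrb turned to -0.28 with 1 surrogate variable and -0.32 with the index, and ran from -0.0372 to 0.536 with 1 sample left out. Nrf1 turned to 0.0306 with the surrogate variable and 0.0366 with the index, and ran from -0.14 to 0.0039 with 1 sample left out. Tfam turned to -0.0181 with library size alone, -0.0298 with limma on log2(TPM + 1), -0.0304 on log2(TPM + 0.1), -0.16 with the surrogate variable and -0.19 with the index, and ran from -0.0824 to 0.12 with 1 sample left out. The cause of these turns was not tested. The surrogate variable had an r of -0.971 with the marker index. The number of relations with an adjusted p under 0.05, 24 of 36, ran from 6 to 27 with 1 sample left out, the lowest without vehicle replicate 1. Over all genes, 0 were called in the quasi-likelihood test, 15 in the likelihood ratio test, 11 in DESeq2 and 4 without a filter, 3 with replicates 1 and 2 against 3 and 4 as a term, 3 with the surrogate variable and 2 without CNO replicate 1.

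With replicate number as a block, the log2 fold change was 0.37 for Ppargc1a and 0.53 for Esrrg, and no call changed. Samples of the same number deviated together with correlations of -0.0302 to 0.239, and 1 of 4 CNO samples correlated best with its own number. With 4 pools a group, these values cannot tell whether samples of the same number were handled together. With replicates 1 and 2 against 3 and 4 as a term, 412 genes were higher and 781 lower at an unadjusted p under 0.05 in the quasi-likelihood test. Without the term these numbers were 252 and 464, and the source of the difference was not tested.

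With 4 pools a group, the intervals of Ppargc1a, Esrra and Esrrg allow changes up to 0.84, 0.81 and 1.14 on the log2 scale, and Esrrb rests on 29 to 125 reads. The number of correlations that passed depends on vehicle replicate 1. Exons of Pprc1 and Esrra overlap Ldb1 and Trmt112, and the part of reads from these overlaps in their levels was not tested.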
